A study of Mus musculus with 10 samples.

Results

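The aryl hydrocarbon receptor gene Ahr, 2 genes for its protein partners (Arnt and Ptges3) and 6 genes listed as its targets (Cyp1b1, Tiparp, Ahrr, Serpinb2, Entpd1 and Lpcat2) were followed through 10 RNA-seq libraries of mouse macrophages. These 9 genes were taken by symbol from the deposited FPKM table of 12535 genes, and all 9 were found there once. FPKM is the number of fragments scaled by gene length and by a size set for each library, so that levels of different genes can be set side by side. The 3 groups were sorted on CD45 (leukocytes), CD11b (myeloid cells) and F4/80 (macrophages), all positive. Resident macrophages came from the healthy pancreas of C57/BL6 WT mice (n = 4 libraries). Tumour-associated macrophages (TAM) were sorted from orthotopic pancreatic tumours of MT4, 1 organoid line of the KPC mouse model of pancreatic adenocarcinoma, 14 days after its cells were placed in the pancreas. Control TAM came from C57/BL6 Ahr fl/fl mice, which carry loxP-flanked Ahr without a Cre named in the label (n = 3). The TAM labelled cKO came from C57/BL6 Ahr fl/fl Lys M mice, in which Cre expressed from the Lyz2 locus acts in cells of the myeloid lineage and not in the implanted tumour cells (n = 3). The sources used here give neither mouse ages nor the Ahr exons that Cre removes.

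The receptor is a ligand-activated transcription factor of the bHLH-PAS family. Without ligand it waits in the cytoplasm, bound to the chaperone HSP90 and its co-chaperone p23, the product of Ptges3. Ligands such as dioxins, dietary indoles and tryptophan metabolites send it to the nucleus, where it pairs with ARNT and binds the xenobiotic response element, whose core is GCGTG. Cyp1b1, Tiparp and Ahrr are classical targets, and the proteins of the last 2 restrain the receptor in turn. In macrophages the receptor is known to temper inflammatory cytokine production and to respond to metabolites of tumours and of gut bacteria.

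The sequence just before the transcription start was searched for that core on both strands. RefSeq promoters (GRCm38.p6) were found for 8 of the 9 genes, not for Ahr, and the 250 bases upstream of each start were used. GCGTG, or CACGC on the other strand, occurred in 7 of the 8 genes, against 28.2% of 27025 promoters of the same length and 45.3% of the 9386 whose gene is in the FPKM table. Ahrr held 3 matches, a number reached by 5.34% of the promoters of genes in the table, and Ptges3 held 2. Only the Ahrr window held the longer form TNGCGTG, at the match that ends 23 bases before the start; 6.6% of the promoters of genes in the table hold it. The related core ACGTG, which ARNT pairs with HIF-1 alpha to bind, was in none of the windows of the 8 genes and in 21.7% of the promoters of genes in the table. GCGTG is bound by the HIF-1 pair as well and lies within TNGCGTG, so a match does not name a factor. Base composition differs too, from 32.4% G and C in the first Serpinb2 window to 75.2% in that of Tiparp, with a median of 59.6% for genes in the table.

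Shown here are the windows of the 3 classical targets and of Serpinb2, the gene of the 9 with the largest difference between tumour and healthy pancreas, each 5′ to 3′ on the strand of its gene with every GCGTG or CACGC in capitals. The Tiparp window stops where the GENCODE gene model starts, and it also lies in an exon of the pseudogene 4931440P22Rik on the opposite strand.
Cyp1b1 (chr17:79715062-79715311, minus strand): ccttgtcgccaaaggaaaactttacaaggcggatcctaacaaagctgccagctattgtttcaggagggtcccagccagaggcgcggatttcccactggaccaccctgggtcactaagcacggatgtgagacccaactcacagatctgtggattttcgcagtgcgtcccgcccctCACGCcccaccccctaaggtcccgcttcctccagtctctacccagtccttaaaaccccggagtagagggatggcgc
Tiparp (chr3:65528197-65528409, plus strand): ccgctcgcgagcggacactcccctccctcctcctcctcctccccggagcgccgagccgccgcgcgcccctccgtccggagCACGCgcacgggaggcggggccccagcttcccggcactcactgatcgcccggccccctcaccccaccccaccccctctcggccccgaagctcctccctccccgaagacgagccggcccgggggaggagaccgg
Ahrr (chr13:74292332-74292581, minus strand): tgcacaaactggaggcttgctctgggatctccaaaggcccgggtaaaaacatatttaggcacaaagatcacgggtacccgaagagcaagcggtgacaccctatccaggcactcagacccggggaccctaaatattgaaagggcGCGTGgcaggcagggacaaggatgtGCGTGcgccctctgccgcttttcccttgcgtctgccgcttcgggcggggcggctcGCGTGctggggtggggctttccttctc
Serpinb2 (chr1:107511173-107511422, plus strand): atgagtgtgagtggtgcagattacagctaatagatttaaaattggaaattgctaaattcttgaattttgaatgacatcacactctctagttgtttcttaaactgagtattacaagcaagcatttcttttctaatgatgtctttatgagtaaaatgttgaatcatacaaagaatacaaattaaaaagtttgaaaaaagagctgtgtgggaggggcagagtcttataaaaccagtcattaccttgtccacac
The single Cyp1b1 match lies 76 to 72 bases before the start and that of Tiparp 170 to 166 bases before it. The 3 Ahrr matches begin 107, 82 and 27 bases before the start, all on the strand of the gene. Neither of the 2 Serpinb2 windows held the core, which says only that these letters are not in them. The map of matches shows the position of each in all 10 windows, since Serpinb2 and Entpd1 have 2 listed starts each.

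**Figure D1:**
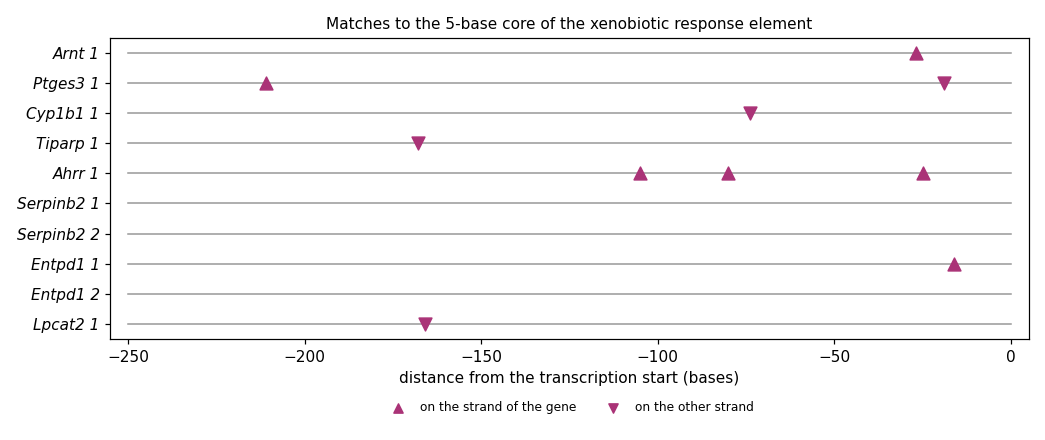
Matches to GCGTG on either strand in the 250 bases before each RefSeq start of 8 genes; the x axis is the distance from the start in bases, each grey line is 1 window and the number after a symbol is the start used. Ahrr has 3 matches, Ptges3 has 2, and the windows of Serpinb2 and the second window of Entpd1 have 0.

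Reads could be recovered from the FPKM, since most low values are whole multiples of 1 read, whose size is set by gene length and library. With the longest annotated transcript as the length, 88.7% to 92.1% of values of up to 40 reads came out whole within 0.05, and the table held 10312725 to 26454666 reads per library. The macrophage markers used in the sort were present in every group: Ptprc, which encodes CD45, was at 69.0 ± 3.31, 103 ± 3.18 and 84.2 ± 2.87 FPKM in resident, control and cKO-labelled libraries (mean ± SD, n = 4, 3 and 3, as throughout), Itgam, which encodes CD11b, at 31.4 ± 0.995, 75.9 ± 5.23 and 59.7 ± 3.32, and Adgre1, which encodes F4/80, at 706 ± 14.9, 590 ± 2.78 and 497 ± 7.72. Transcripts of other cells differed between the groups. Over 13 acinar genes the summed level was 27816 to 29574 FPKM in resident, 83.6 to 89.1 in control TAM and 329 to 340 in cKO-labelled libraries. In the same order of groups, epithelial sums were 9.38 to 10.9, 293 to 304 and 291 to 304 FPKM, neutrophil sums 360 to 369, 1290 to 1316 and 1620 to 1785, and eosinophil sums 0.642 to 1.22, 73.7 to 77.1 and 103 to 106. The neutrophil sum was mostly Mmp9 in resident libraries (329 ± 3.73 FPKM) and mostly Retnlg in control and cKO-labelled TAM (1166 ± 14.9 and 1420 ± 78.1). The neutrophil marker S100a8 was at 0.675 ± 0.220, 25.05 ± 0.887 and 48.6 ± 3.18 FPKM in the 3 groups. Dendritic cell sums were 184 to 196, 32.7 to 39.0 and 77.5 to 83.1 FPKM, endothelial sums 3.48 to 3.87, 7.56 to 8.72 and 27.5 to 29.2, B and plasma cell sums 47.8 to 49.3, 6.11 to 7.28 and 19.2 to 20.01, and T and NK cell sums 8.64 to 10.2, 14.2 to 17.1 and 19.3 to 20.8. Single genes carried some of these sums. The dendritic one was mostly Cd209a (118.5, 17.7 and 43.6 FPKM) and Batf3 (43.0, 15.2 and 33.5), while Flt3 was at 1.03, 0.864 and 0.770. The endothelial one was mostly Plvap in cKO-labelled libraries (16.6 FPKM, 0.863 in control TAM), while Vwf was at 0.543 and 0.597 there. The part of such RNA in the results was not tested. The Y-linked gene Ddx3y was at 0 to 0.0602 FPKM in resident and 0.543 to 0.832 in TAM libraries, and wild-type against Ahr fl/fl goes with the same split. The difference between tumour and healthy tissue therefore cannot be told apart from genotype or from what else separates these mice. In sorted bulk RNA, fewer cells of a type and less RNA per cell cannot be told apart either.

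Between resident macrophages and control TAM, 5 of the 9 genes rose (Ahr, Cyp1b1, Tiparp, Serpinb2 and Lpcat2), 3 fell (Arnt, Ahrr and Entpd1) and Ptges3 did not pass the test. The groups did not overlap for 8 of them, against 73.9% of genes tested. This is read against a background in which 77.1% of the 11127 genes tested differed, 39.0% higher and 38.1% lower. Between control and cKO-labelled TAM, 2 of the 9 rose (Ahr and Ptges3), 5 fell (Arnt, Cyp1b1, Tiparp, Serpinb2 and Entpd1), and Ahrr and Lpcat2 did not pass, where 39.6% of all genes tested differed, 20.5% higher and 19.1% lower. There the groups did not overlap for 7 of the 9, against 51.4% of genes tested. A call is an adjusted p under 0.05 in limma on log2(FPKM + 1), over all genes tested. The 2 comparisons share the control TAM libraries. All 9 genes passed the filter on low values (1 FPKM or more in 3 or more libraries), but Cyp1b1 did so only through control TAM and Ahrr only through resident macrophages, so that these 2 had to differ, and the counts above are a description. The median log2 change of the 9 was 0.66 in the first comparison (0.00 over all genes tested) and -0.18 in the second (0.01 over all genes tested).

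**Figure D2:**
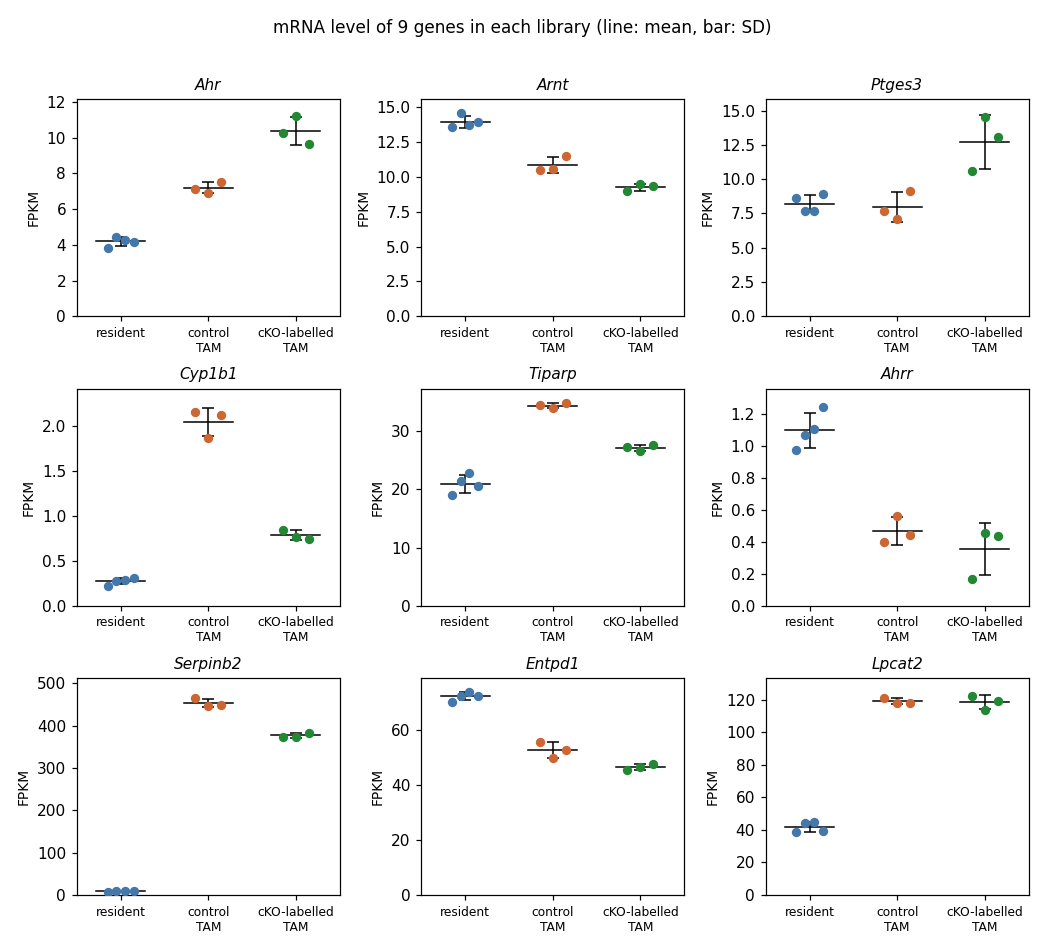
FPKM of the 9 genes in each of the 10 libraries (points, 1 per library), with the mean (line) and SD (bar) of resident macrophages, control TAM and cKO-labelled TAM; each y axis starts at 0. Ahr climbs over the 3 groups, Cyp1b1 and Tiparp peak in control TAM, and Serpinb2 is far higher in all 6 TAM libraries than in the 4 resident ones.

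Ahr itself, like the other 8 a protein-coding gene (ENSMUSG00000019256, on the minus strand of GRCm38 chromosome 12 from 35497974 to 35535038), was lowest in healthy pancreas and highest in the libraries labelled cKO. It was read from 268 to 347 fragments in the resident libraries, 388 to 626 in control TAM and 944 to 1371 in cKO-labelled TAM. The FPKM were 3.84, 4.46, 4.29 and 4.16 in resident, 7.11, 6.91 and 7.51 in control TAM, and 10.2, 11.2 and 9.65 in cKO-labelled libraries. The 3 groups did not overlap, and the lowest cKO-labelled library lay above the highest control. The mean of control TAM was 1.71 times that of resident macrophages (log2 change 0.66 ± 0.07, SE, limma adjusted p = 2.29e-07), and that of cKO-labelled TAM 1.44 times that of control TAM (0.47 ± 0.07, adjusted p = 0.000108). In the second comparison 92.8% of all genes tested had a smaller absolute change. A gene-level value counts exons on either side of any deleted stretch, so the deletion cannot be checked with it, and the libraries are called by their label here. In rank, Ahr mRNA stood above 41.3% of the genes in the table in resident, 53.2% in control and 61.1% in cKO-labelled TAM.

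Lyz2, the lysozyme gene whose locus drives the Cre, was at 28140 ± 477 FPKM in resident macrophages, 19904 ± 85.1 in control and 11460 ± 203 in cKO-labelled TAM. The other 12 genes of the macrophage identity list summed to 5496 to 5617 FPKM in control and 5684 to 5831 in cKO-labelled TAM. In this comparison 7 of the 13 identity genes fell, Lyz2 among them, and 3 rose (19.1% and 20.5% of all genes tested). The part of the identity genes in the results for the 9 genes was not tested.

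The genes of the partner proteins took different courses. Arnt (ENSMUSG00000015522, chromosome 3, 95434388 to 95497240, plus strand), which encodes the nuclear partner shared with the HIF proteins, was at 13.6, 14.6, 13.7 and 13.9 FPKM in resident, 10.5, 10.5 and 11.5 in control TAM, and 8.99, 9.46 and 9.36 in cKO-labelled libraries. It thus stepped down where Ahr stepped up, with no overlap of the groups. The log2 change was -0.34 ± 0.05 from resident to control TAM (limma adjusted p = 2.85e-05) and -0.20 ± 0.06 from control to cKO-labelled TAM (adjusted p = 0.0100). Without control TAM replicate 3 the second was -0.17 (adjusted p = 0.0494). The ratio of Ahr to Arnt FPKM within a library was 0.283 to 0.313 in resident, 0.654 to 0.677 in control TAM and 1.03 to 1.18 in cKO-labelled TAM, and so passed from under 1 to over 1.

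Ptges3 (ENSMUSG00000071072, chromosome 10, 128058954 to 128077272, plus strand) encodes p23, which steadies the HSP90 complex, and also acts as a prostaglandin E synthase. Its FPKM were 8.65, 7.71, 7.65 and 8.88 in resident, 7.65, 7.06 and 9.16 in control TAM, and 10.6, 14.5 and 13.04 in cKO-labelled libraries. Resident and control libraries overlapped, and the 3 cKO-labelled libraries were higher than all of them but spread widely (SD 1.98). The log2 change from resident to control TAM was -0.05 (95% interval -0.25 to 0.16, limma adjusted p = 0.674), and from control to cKO-labelled TAM 0.61 ± 0.10 (adjusted p = 0.000273), and 96.1% of genes tested had a smaller absolute change. The pseudogene Ptges3-ps carries 480 bases identical to its transcript, so reads of the 2 may be mixed.

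Among other genes of the receptor complex, the HSP90 gene Hsp90aa1 and the kinase gene Src rose from resident to control TAM, and Hsp90ab1 fell. Hsp90aa1 went from 6.66 ± 0.504 to 11.3 ± 0.657 FPKM and the far more abundant Hsp90ab1 from 397 ± 6.05 to 335 ± 3.87. From control to cKO-labelled TAM Src rose, at 0.768 ± 0.221 and 1.65 ± 0.169 FPKM (limma adjusted p = 0.00105), while Hsp90aa1 stood at 9.81 ± 0.534 FPKM (adjusted p = 0.0516). Of the first calls, that of Src (0.484 ± 0.206 FPKM in resident) had overlapping groups and was lost with the replicate block (adjusted p = 0.161) and in 8 of the 10 fits without 1 library, and that of Hsp90ab1 was lost with a common FPKM total (log2 change -0.03, adjusted p = 0.267).

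Other genes of the bHLH-PAS family, only some of them for further partners of ARNT, were measured too. Of 4 further bHLH-PAS genes tested, 2 rose and 2 fell from resident to control TAM (39.0% and 38.1% of all genes tested). Hif1a, the oxygen-regulated partner, rose from 17.3 ± 1.21 to 68.0 ± 2.0 FPKM and Epas1, its relative, from 0.289 ± 0.102 to 1.16 ± 0.149. The clock genes Arntl (13.2 ± 0.377 and 6.19 ± 0.123 FPKM) and Clock (1.56 ± 0.221 and 1.17 ± 0.171) fell, although the call of Clock was lost with a common FPKM total (adjusted p = 0.249), with the replicate block (0.0832) and without resident replicate 4 (0.0783) or control TAM replicate 2 (0.118). Only Arntl was called from control to cKO-labelled TAM, where it fell to 5.37 ± 0.131 FPKM (limma adjusted p = 0.0257, and up to 0.0864 without 1 TAM library). Hif1a was at 69.2 ± 2.41 FPKM there (log2 change 0.02, adjusted p = 0.756). The ratio of Hif1a to Arnt FPKM was 1.16 to 1.30 in resident, 5.94 to 6.65 in control TAM and 7.39 to 7.58 in cKO-labelled libraries.

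**Figure D3:**
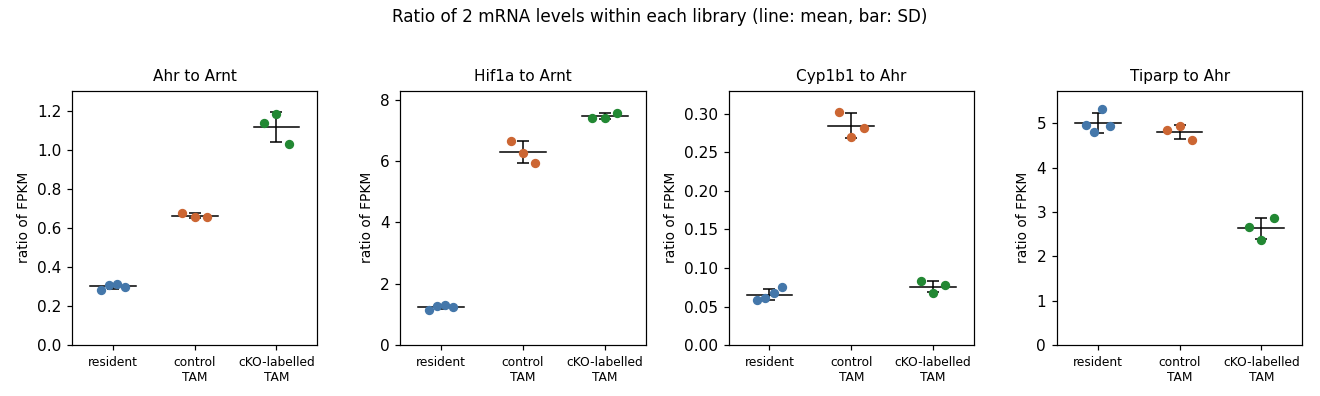
Ratio of 2 FPKM values within each library (points), with mean (line) and SD (bar) by group, for Ahr to Arnt, Hif1a to Arnt, Cyp1b1 to Ahr and Tiparp to Ahr; each y axis starts at 0. Ahr to Arnt steps up over the 3 groups, Cyp1b1 to Ahr is high in control TAM only (0.271 to 0.302), and Tiparp to Ahr is low in cKO-labelled TAM (2.37 to 2.86).

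Of the 3 classical targets, Cyp1b1 had the largest fold difference between cKO-labelled and control TAM. Cyp1b1 (ENSMUSG00000024087, chromosome 17, minus strand, 79701537 to 79715061), a cytochrome P450 that oxidises steroids and aromatic compounds, was at 0.224, 0.270, 0.290 and 0.311 FPKM in resident, 2.15, 1.87 and 2.12 in control TAM, and 0.845, 0.759 and 0.746 in cKO-labelled libraries. The groups did not overlap, and neither did the 95% counting intervals of single libraries, which reached from 0.128 to 0.463 FPKM in resident, 1.51 to 2.54 in control and 0.589 to 1.06 in cKO-labelled TAM. The mean of control TAM was 7.47 times that of resident macrophages, and that of cKO-labelled TAM was 0.383 times that of control. On the log2(FPKM + 1) scale, which understates changes of so low a gene, these were 1.26 ± 0.07 and -0.77 ± 0.08. Cyp1b1 passed the filter only through control TAM, which favours a peak there, so its tests are given without any filter: limma adjusted p = 5.96e-11 and 5.93e-07. The changes were 2.88 and -1.40 with voom on the recovered reads. The cKO-labelled mean was still 2.86 times the resident mean (limma adjusted p = 4.63e-06 without a filter), in a comparison where 77.4% of genes tested differed, 40.2% higher and 37.2% lower. As a description, the FPKM lost in cKO-labelled TAM were 71.2% of those gained in control TAM. Some fibroblast markers had the same course: in resident, control and cKO-labelled libraries Pdgfra was at 0.131 ± 0.0441, 1.21 ± 0.244 and 0.328 ± 0.123 FPKM, Col1a2 at 1.48 ± 0.269, 28.9 ± 0.793 and 16.0 ± 0.685, and Dcn at 26.9 ± 1.38, 52.9 ± 0.366 and 24.4 ± 0.947. Over the 7 fibroblast genes of the table the sums were 37.4 to 41.0, 161 to 164 and 121 to 125 FPKM. Of the 5 tested, Pdgfra not among them, 2 rose and 2 fell from control to cKO-labelled TAM (20.5% and 19.1% of all genes tested). Those that rose were Col1a1, from 15.53 ± 0.353 to 20.75 ± 0.725 FPKM, and Lum, from 2.49 ± 0.480 to 4.29 ± 0.228. Col3a1 was not called. The part of fibroblast RNA in the Cyp1b1 result was not tested.

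**Figure D4:**
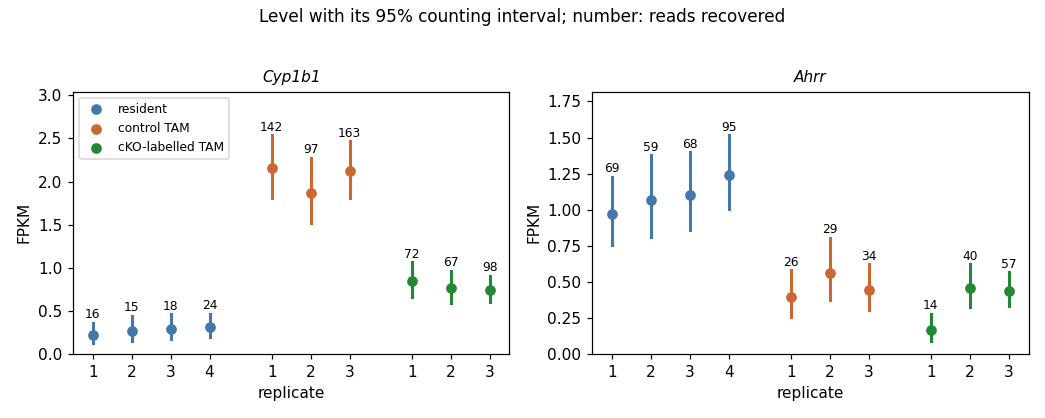
FPKM of Cyp1b1 and Ahrr in each library (points) with the exact 95% Poisson interval of its read count (bars), which covers counting error only; the number above each bar is the count of reads recovered and the x axis gives the replicate within its group. The Cyp1b1 bars of the 3 groups are apart, whereas for Ahrr the 14 reads of cKO-labelled replicate 1 lie below the 40 and 57 of the other 2.

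Tiparp (ENSMUSG00000034640, chromosome 3, 65528410 to 65555518, plus strand) encodes a mono-ADP-ribosyltransferase that modifies the receptor and shortens its activity. Its FPKM were 19.1, 21.4, 22.8 and 20.6 in resident, 34.4, 34.0 and 34.8 in control TAM, and 27.2, 26.6 and 27.6 in cKO-labelled libraries. The cKO-labelled libraries lay between the other 2 groups with no overlap. As a description, the FPKM lost there were 54.2% of those gained in control TAM. The log2 change was 0.69 ± 0.05 from resident to control TAM (limma adjusted p = 4.75e-09) and -0.33 ± 0.06 from there to cKO-labelled TAM (adjusted p = 0.000238). The antisense pseudogene 4931440P22Rik shares 224 bases with Tiparp, and the libraries carry no strand. It was at 1.94 ± 0.208, 0.991 ± 0.197 and 1.28 ± 0.145 FPKM in the 3 groups, far below Tiparp.

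Set against the receptor's own mRNA, Cyp1b1 and Tiparp differed in pattern. The ratio of Cyp1b1 to Ahr was 0.0583 to 0.0748 in resident, 0.271 to 0.302 in control TAM and 0.0678 to 0.0825 in cKO-labelled libraries, where it overlapped the resident range. The ratio of Tiparp to Ahr was 4.81 to 5.32 in resident and 4.63 to 4.93 in control TAM, which overlapped, and 2.37 to 2.86 in cKO-labelled libraries. In those libraries mean Ahr was 1.44 times control, and its gene-level value counts exons on either side of any deleted stretch. The ratios therefore do not measure target mRNA per intact receptor mRNA. The Cyp1b1 mean itself stayed 2.86 times the resident mean there.

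The other 6 genes of the Tiparp family list all rose from resident to control TAM, as did 39.0% of all genes tested. Parp10 went from 15.7 ± 0.734 to 36.7 ± 1.27 FPKM and Parp9 from 18.6 ± 1.88 to 31.9 ± 0.907. Only Parp12 fell from control to cKO-labelled TAM (47.6 ± 1.80 and 38.6 ± 0.486 FPKM, limma adjusted p = 4.38e-05), and the other 5 did not pass. Both Parp9 and Parp12 are also known as interferon-induced genes.

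Ahrr (ENSMUSG00000021575, chromosome 13, 74211118 to 74292331, minus strand) encodes the receptor's repressor, which competes for ARNT and is induced by the receptor. Its FPKM were 0.971, 1.07, 1.10 and 1.24 in resident, 0.396, 0.562 and 0.444 in control TAM, and 0.165, 0.456 and 0.436 in cKO-labelled libraries. Resident libraries were all above the TAM libraries, and the 2 TAM groups overlapped. The log2 change was -0.51 ± 0.09 from resident to control TAM (limma adjusted p = 9.12e-05, 4.31e-05 without the filter, which Ahrr passed only through resident macrophages), opposite in sign to those of Cyp1b1 and Tiparp. It was -0.12 from control to cKO-labelled TAM (95% interval -0.33 to 0.08, adjusted p = 0.337), and -0.02 without cKO-labelled replicate 1. That replicate gave 14 reads, against 40 and 57 in the other 2. Its 95% counting interval, 0.0903 to 0.277 FPKM, lay below theirs, 0.326 to 0.621 and 0.331 to 0.565, so the replicates differed by more than counting error.

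Other genes of the receptor's feedback and turnover were measured as well. Of 4 tested, Cul4b rose from resident to control TAM (2.32 ± 0.134 and 3.14 ± 0.294 FPKM) and the ubiquitin ligase gene Stub1 fell (44.9 ± 1.83 and 35.4 ± 1.65). Of all genes tested, 39.0% rose and 38.1% fell there. Stub1 alone was called from control to cKO-labelled TAM, where it rose to 41.1 ± 0.679 FPKM (limma adjusted p = 0.00221).

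**Figure D5:**
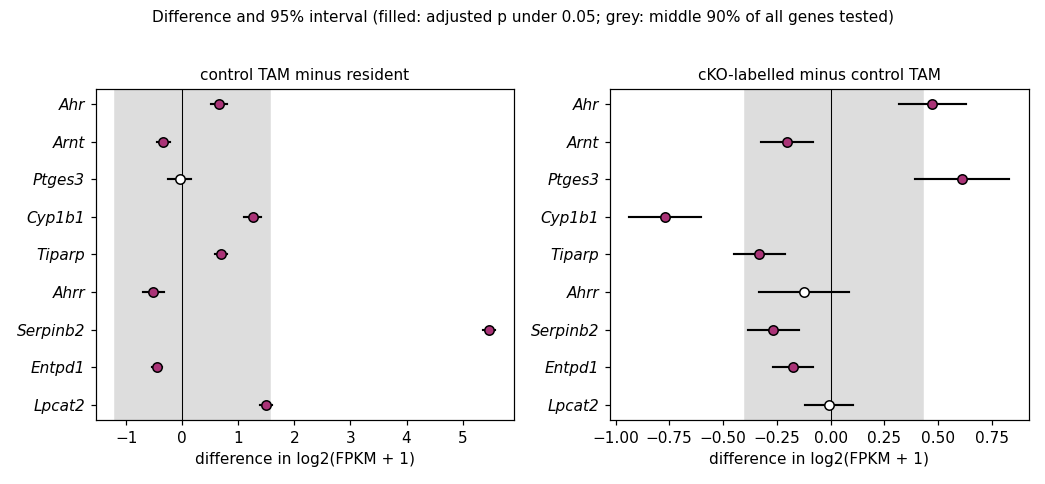
Difference in log2(FPKM + 1) of the 9 genes with its 95% interval, control TAM minus resident on the left and cKO-labelled minus control TAM on the right; filled points have an adjusted p under 0.05 and the grey band holds the middle 90% of all 11127 genes tested. Serpinb2 lies far outside the band on the left, and Cyp1b1, Ptges3 and Ahr lie outside it on the right.

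Serpinb2 (ENSMUSG00000062345, chromosome 1, 107511423 to 107535478, plus strand) encodes plasminogen activator inhibitor 2, a protease inhibitor that is mostly kept inside macrophages. It was at 8.23, 8.97, 10.3 and 9.66 FPKM in resident, 466, 446 and 450 in control TAM, and 374, 374 and 384 in cKO-labelled libraries. All TAM libraries were far above all resident ones, and the cKO-labelled libraries lay just below the control. The control mean was 48.9 times the resident mean (log2 change 5.47 ± 0.05, limma adjusted p = 1.56e-20), with a smaller absolute change in 99.6% of genes tested. From control to cKO-labelled TAM the mean was 0.831 times as high (log2 change -0.27 ± 0.06, limma adjusted p = 0.00146). As a description, the FPKM lost were 17.3% of those gained in control TAM. Among the other targets this share was 0.69% for Lpcat2. It was negative for Entpd1 (-31.9%) and Ahrr (-18.3%), whose means fell in both steps. Both differences in such a share use the control TAM mean. The neighbouring gene Serpinb10 overlaps Serpinb2 on the same strand, so their reads may be mixed. Large peritoneal macrophages are known to express Serpinb2 strongly. Of 15 of their markers, 12 rose and 3 fell from resident to control TAM (39.0% and 38.1% of all genes tested), and 2 rose and 10 fell from control to cKO-labelled TAM (20.5% and 19.1%), with summed levels of 1318 to 1367, 3273 to 3330 and 3089 to 3112 FPKM in the 3 groups. Gata6, which defines those cells, was at 1.32 ± 0.148, 15.6 ± 0.549 and 9.78 ± 0.626 FPKM, and the part of such cells in the Serpinb2 result was not tested.

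Among 9 other tested genes of the plasminogen system and of the serpin B clade, 7 rose and 2 fell from resident to control TAM, against 39.0% and 38.1% of all genes tested. Plat, the tissue-type plasminogen activator, rose from 0.759 ± 0.144 to 7.86 ± 0.362 FPKM. Serpinb6a fell from 131 ± 3.46 to 51.3 ± 3.30 FPKM. From control to cKO-labelled TAM 2 fell and 0 rose (19.1% and 20.5% of all genes tested). Among those that fell was Serpinb1a, an inhibitor of neutrophil proteases, from 70.3 ± 1.58 to 50.1 ± 3.90 FPKM (limma adjusted p = 3.09e-06).

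Entpd1 (ENSMUSG00000048120, chromosome 19, 40612366 to 40741602, plus strand) encodes CD39, the surface enzyme that breaks extracellular ATP down to AMP. Its FPKM were 70.5, 72.5, 74.0 and 72.6 in resident, 55.7, 50.0 and 53.0 in control TAM, and 45.7, 46.5 and 47.8 in cKO-labelled libraries. It stepped down over the 3 groups without overlap, in the manner of Arnt. The log2 change was -0.45 ± 0.04 from resident to control TAM (limma adjusted p = 4.36e-08) and -0.18 ± 0.04 from there to cKO-labelled TAM (adjusted p = 0.00439). The second is small, and 57.0% of all genes tested had a smaller absolute change.

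The enzyme after CD39, encoded by Nt5e (CD73, which makes adenosine from AMP), rose from 0.597 ± 0.139 FPKM in resident to 41.9 ± 1.32 in control TAM, and stood at 35.6 ± 1.65 in cKO-labelled TAM (log2 change -0.23 ± 0.07, limma adjusted p = 0.0238, up to 0.0812 without 1 TAM library and 0.199 with a pseudocount of 0.1). Of the 8 other tested genes of extracellular nucleotides and adenosine, Nt5e included, 5 rose and 3 fell from resident to control TAM. Of all genes tested, 39.0% rose and 38.1% fell there. From control to cKO-labelled TAM 4 of the 8 rose and 2 fell (20.5% and 19.1% of all genes tested). The adenosine receptor gene Adora2b rose from 8.51 ± 0.142 to 37.9 ± 0.934 FPKM in the first comparison. In the second, the adenosine receptor gene Adora3 rose from 2.35 ± 0.596 to 3.77 ± 0.153 FPKM (limma adjusted p = 0.00267, but 0.115 with a pseudocount of 0.1) and the adenosine deaminase gene Ada from 7.55 ± 1.07 to 10.99 ± 0.818.

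Lpcat2 (ENSMUSG00000033192, chromosome 8, 92855339 to 92919279, plus strand) encodes an acyltransferase that remodels lysophosphatidylcholine and makes platelet-activating factor. It was at 38.5, 44.4, 44.7 and 39.5 FPKM in resident, 121, 118 and 118 in control TAM, and 122, 114 and 119 in cKO-labelled libraries. The TAM groups overlapped, and both lay far above resident macrophages. The control mean was 2.85 times the resident mean (log2 change 1.49 ± 0.05, limma adjusted p = 1.28e-13). From control to cKO-labelled TAM the change was -0.01, with a 95% interval of -0.12 to 0.11 (adjusted p = 0.930). Its antisense neighbour Gm45472 shares 287 bases with it, and reads of the 2 cannot be told apart.

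Of 6 other tested genes for lysophospholipid acyltransferases and platelet-activating factor, 4 rose and 2 fell from resident to control TAM (39.0% and 38.1% of all genes tested). Lpcat4 rose from 2.88 ± 0.352 to 10.5 ± 0.756 FPKM, and Lpcat1 fell from 19.9 ± 1.01 to 8.79 ± 0.450. In the second comparison none of the acyltransferase genes was called, while Ptafr, the receptor for platelet-activating factor, rose by 0.24 from 18.5 ± 0.537 FPKM (log2 scale, limma adjusted p = 0.000543) and Pafah1b1, a subunit of its degrading enzyme, from 4.16 ± 0.146 to 5.97 ± 0.165 (adjusted p = 0.000229).

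The order of levels differed between healthy tissue and tumour, where Serpinb2 came first, followed by Lpcat2 and Entpd1. In resident macrophages Entpd1 came first (72.4 ± 1.45 FPKM), followed by Lpcat2 (41.8 ± 3.19), Tiparp (21.0 ± 1.57), Arnt (13.9 ± 0.430), Serpinb2 (9.29 ± 0.881), Ptges3 (8.22 ± 0.635), Ahr (4.19 ± 0.261), Ahrr (1.10 ± 0.111) and Cyp1b1 (0.274 ± 0.0373). Serpinb2 and Ptges3 were neighbours within their spread there. In control TAM Serpinb2 was at 454 ± 10.5 FPKM, Lpcat2 at 119 ± 1.84, Entpd1 at 52.9 ± 2.87, Tiparp at 34.4 ± 0.366, Arnt at 10.8 ± 0.559, Ptges3 at 7.96 ± 1.08, Ahr at 7.18 ± 0.309, Cyp1b1 at 2.05 ± 0.155 and Ahrr at 0.467 ± 0.0852, with Ptges3 and Ahr within their spread. In cKO-labelled TAM Ptges3 (12.7 ± 1.98 FPKM), Ahr (10.4 ± 0.785) and Arnt (9.27 ± 0.251) came in that order below Tiparp (27.1 ± 0.501), with Ptges3 and Ahr overlapping.

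Other genes known to respond to the receptor moved in both directions. Of 9 tested, 5 rose and 4 fell from resident to control TAM (39.0% and 38.1% of all genes tested). From control to cKO-labelled TAM 5 rose and 3 fell (20.5% and 19.1%). Of the first calls, that of Xdh, a fall, had overlapping groups (limma adjusted p = 0.0496). With a common FPKM total it turned to a rise (log2 change 0.14, adjusted p = 0.00128). In the first comparison Ptgs2, the inducible cyclooxygenase, rose from 1.17 ± 0.0866 to 11.9 ± 0.460 FPKM and Socs2, a brake on cytokine signalling, from 0.506 ± 0.0333 to 3.09 ± 0.407. Cd36, a receptor for fatty acids, fell from 376 ± 23.5 to 32.0 ± 1.28 FPKM and the cytokine Il10 from 4.33 ± 0.415 to 1.01 ± 0.240. In the second, Xdh, which encodes xanthine dehydrogenase, fell from 148 ± 1.79 to 117 ± 1.85 FPKM (log2 change -0.33 ± 0.03, limma adjusted p = 1.50e-06) and Ptgs2 to 9.24 ± 0.306 (adjusted p = 0.00138). Il10 rose to 2.09 ± 0.290 FPKM (adjusted p = 0.000203) and Socs2 to 3.94 ± 0.0447 (adjusted p = 0.0144, and 0.0726 without control TAM replicate 3).

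Of 13 coregulator genes, 3 rose and 8 fell from resident to control TAM (4 and 3 with a common FPKM total). Of all genes tested, 39.0% rose and 38.1% fell there. From control to cKO-labelled TAM 2 rose and 5 fell (0 and 5 with that total), against 20.5% and 19.1% of all genes tested. Nrip1, a corepressor of nuclear receptors that also binds this receptor, went up and then down, from 7.85 ± 0.356 to 14.6 ± 0.705 FPKM and then to 9.05 ± 0.204 (log2 change -0.63 ± 0.06, limma adjusted p = 9.85e-07). The coactivator genes Ncoa1 (8.36 ± 0.284 and 6.14 ± 0.548 FPKM) and Ncoa2 (2.35 ± 0.264 and 1.29 ± 0.0603) fell from resident to control TAM. Ncoa3 fell from control to cKO-labelled TAM (10.9 ± 0.192 and 8.83 ± 0.616 FPKM, limma adjusted p = 0.00153).

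Of 8 tested genes for the breakdown and transport of tryptophan and kynurenine, 7 rose and 1 fell from resident to control TAM (39.0% and 38.1% of all genes tested). From control to cKO-labelled TAM 2 rose and 3 fell (20.5% and 19.1% of all genes). The 8 include Slc7a5, which is counted among the 9 other responsive genes as well. Ido1 and Tdo2, which open the kynurenine pathway, were at 0.211 ± 0.232 and 0.168 ± 0.00537 FPKM in resident and 22.2 ± 0.455 and 2.98 ± 0.282 in control TAM. They stood at 13.4 ± 0.781 and 0.665 ± 0.0818 FPKM in cKO-labelled TAM, with log2 changes against control of -0.69 ± 0.12 (limma adjusted p = 0.000238, but 0.147 with a pseudocount of 0.1) and -1.26 ± 0.08 (adjusted p = 1.06e-08). Kmo, which hydroxylates kynurenine, took the opposite course, from 14.1 ± 1.02 to 4.59 ± 0.177 FPKM and then up to 7.25 ± 0.383. Slc7a5, whose transporter carries tryptophan and kynurenine, rose from 1.68 ± 0.265 to 4.95 ± 0.536 FPKM, and was at 6.09 ± 0.271 FPKM in cKO-labelled TAM (adjusted p = 0.0398 in limma, and up to 0.128 without 1 TAM library).

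The genes nearest to a member were sought over the 3 group means, by the distance between their 2 log2 changes and those of the member. These changes are in log2(FPKM + 1), which understates those of low genes, so genes at a small distance can differ in fold. Nearest to Ahr were Tmc4 (distance 0.020), Nkg7 (0.058) and Nod2 (0.066). Nkg7, a marker of cytotoxic lymphocytes, was at 3.82 ± 0.598, 6.31 ± 0.494 and 9.35 ± 0.764 FPKM. Of 8 T and NK cell markers tested, Nkg7 included, 4 rose and 1 fell in cKO-labelled against control TAM (20.5% and 19.1% of all genes tested). The marker that fell was Il7r, from 2.87 ± 0.392 to 1.24 ± 0.292 FPKM. The part of such cells in the Ahr values was not tested. Nearest to Cyp1b1 were Gm12606 (0.027), Dnajc10 (0.029) and Steap4 (0.030), among them Dnajc10, a chaperone of the endoplasmic reticulum, at 25.4 ± 0.803, 62.4 ± 2.37 and 35.4 ± 1.33 FPKM. Cyp1b1 itself, at 0.274, 2.05 and 0.783 FPKM, had larger fold differences than Dnajc10. Nearest to Lpcat2 were Nfe2 (0.015), Tnfsf9 (0.021) and Bcl2a1b (0.026). Serpinb2 had few genes near it, with Wfdc21 at 0.11, Upp1 at 0.27 and Tgm2 at 0.36. Within a distance of 0.25 lay 79 genes for Ahr, 40 for Cyp1b1, 132 for Lpcat2 and 1 for Serpinb2.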

How the data were processed

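RNA of 10 sorted macrophage libraries was amplified with a SMART-Seq v4 kit and made into Nextera XT libraries, per the labels' protocols, a procedure that keeps no strand. The authors deposited 1 table of FPKM with 1 column per library, and columns were matched to samples by title. The submitters' processing notes list STAR, edgeR, mm10 and GRCm38 without a role for each. How gene lengths and library scaling were set is not given in the sources used here. With the longest transcript as the length, the recovered reads exceeded the library size that the scaling implied in every library. In the first replicates these were 15676844 against 13931963 in resident, 13091923 against 12871809 in control and 17078406 against 16622554 in cKO-labelled TAM. The scaling was thus not the number of reads in the table alone.

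Genes that reached 1 FPKM in 3 or more libraries were fitted with limma 3.58.1 in R 4.3.3 on log2(FPKM + 1), with 3 group means, 7 residual degrees of freedom, empirical Bayes moderation and a variance trend, and Benjamini-Hochberg adjustment over all 11127 genes at 0.05. The procedure was tested on simulated data. The p-values measure only the spread between libraries. The median squared difference of the 12 same-group pairs was 1.66 to 2.11 times counting noise. These values cannot tell separate mice from parts of 1 pool, so n counts libraries and not mice. Copies of the members were sought with blastn 2.17.0 (identity of at least 95% over 200 bases), and coordinates are those of GENCODE M21 on GRCm38, 1-based.

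The members and lists were chosen with earlier results of these data known. Named genes are the 9 members, up to 4 called genes with the largest change per list, and the nearest genes by log2 changes. Values of Ptprc, Itgam, Adgre1, Lyz2, Gata6, Ddx3y, 4931440P22Rik and the other named cell type markers, and the uncalled ones of Hsp90aa1 and Hif1a, were added after they were seen. Some genes of the lists are not reported here. Counting intervals cover counting error only.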

Additional observations from a re-analysis of the deposited data

How the results depend on the processing

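Over 21 alternatives (20 planned, and voom on recovered reads, chosen after seeing the data), 557 of 561 values for the 9 genes in 3 comparisons kept their direction and their side of the threshold. The other 4 were changes that had not been called: Ptges3 between control TAM and resident macrophages at 0.14 with a common FPKM total and 0.026 without control TAM replicate 2, and Lpcat2 between cKO-labelled and control TAM at 0.006 without control TAM replicate 1 and 0.021 without cKO-labelled replicate 2, in a range from -0.030 (log2 scale, adjusted p of 0.167, 0.830, 0.954 and 0.818; the cause was not tested). Cyp1b1 and Ahrr could not be tested at an FPKM of at least 5. Their changes grew with a smaller pseudocount, to 2.52 and -1.08 for control TAM against resident macrophages at 0.1. The 8577, 4410 and 8612 genes called in the 3 comparisons (control TAM against resident, cKO-labelled against control TAM, cKO-labelled against resident) were 8237 to 8559, 3496 to 4611 and 8182 to 8646 when 1 library was left out. With the replicate number as a block (replicate block) they were 8396, 4342 and 8437, and the block changed no call of the 9 genes. Same-numbered control and cKO-labelled libraries had deviations that correlated at 0.00, -0.04 and 0.09. With so few libraries and counting noise in each deviation, these values cannot show whether the numbers pair the samples. A common FPKM total shifted the median of all genes by 0.18, -0.07 and 0.11, and the share of calls that were higher went to 65.9%, 32.9% and 61.6%, from 50.6%, 51.8% and 52.0%. Arnt fell by 0.14 and Entpd1 by 0.24 there from resident to control TAM, both still called. Of 71 called changes of the genes chosen from the lists, 1405 of 1476 values kept their call, 69 lost it and 2 turned with the common total: Ncoa3 (0.049) and Xdh (0.142), from resident to control TAM. The uncalled change of Hif1a between the TAM groups was -0.054 with that total and -0.004 with quantile normalization. Ahrr rests on 14 to 95 reads per library and Cyp1b1 on 15 to 163.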
